A study of Mus musculus with 63 samples.

Results

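The genes described here are 9 transcription factors of intestinal identity, *Gata4*, *Gata5*, *Gata6*, *Cdx1*, *Cdx2*, *Hnf4a*, *Hnf4g*, *Klf4* and *Klf5*. They were chosen by name, and each matched 1 of the 24766 genes of the expression table. Earlier results of these data were known when the factors and the gene lists were chosen. Their shares and medians set beside those of all genes are therefore descriptions and not independent tests. All 9 had a mean normalised count above 10 in every comparison and so entered every test.

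Whole-transcriptome RNA sequencing was carried out on 63 small intestinal tumour libraries from 2 Apchet mice on a C57BL/6 background, 1 female and 1 male. Mouse and sex therefore cannot be told apart. Both animals carried *Villin-creERT2*, which drives a tamoxifen-dependent Cre recombinase in the intestinal epithelium and not in other cells, a single floxed *Apc* allele and a heterozygous *R26R-Confetti* reporter, which marks scattered clones with fluorescent proteins. All tumours of both mice had the same exposure: 4 mg of tamoxifen in animals older than 8 weeks and, 10 days later, 200 mg per kg of the mutagen ENU, so that there was no untreated tissue to compare with. Dissection of 20 multicoloured tumours (10 per mouse) gave separate libraries of the larger clone, called major, and of the smaller clone, called minor, 40 in all. Another 23 tumours (10 female, 13 male) went into 1 library each without being divided. Tumours came from small intestinal segments labelled SI10, SI20 and SI30. Of the divided tumours, 7 came from SI10, 10 from SI20 and 2, both of the female mouse, from SI30, and 1 had clones labelled SI10 and SI20. The undivided tumours were 12 from SI10 and 11 from SI20.

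GATA4, GATA5 and GATA6 are zinc finger factors that bind GATA motifs. In the small intestine GATA4 is known for keeping the jejunum distinct from the ileum, and GATA6 for its part in the crypt and in enteroendocrine and Paneth cells. CDX1 and CDX2 are caudal-type homeodomain factors, and CDX2 sets intestinal against gastric identity. HNF4A and HNF4G are nuclear receptors that together keep enterocytes differentiated, while KLF4 is best known from non-dividing and goblet cells and KLF5 from proliferating crypt cells.

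The labelled tissue was checked on 8 epithelial markers (*Epcam*, *Cdh1*, *Krt8*, *Krt18*, *Krt19*, *Cldn3*, *Cldn7* and *Vil1*), none of which was at 0 in any library. Their summed level ranged from 171600 to 641900 normalised counts. Markers of fibroblasts and muscle (10 genes) summed to between 892 and 26800, those of endothelium (5 genes) to between 606 and 12120 and those of immune cells (8 genes) to between 718 and 31230, so that other cells were present in all classes. In bulk tumour tissue, fewer cells of a type and less RNA per cell cannot be told apart. The deposited values sum to between 26140227 and 45909885 per library. They had already been scaled between libraries, so the read depth behind each value is unknown. The error given is the spread over tumours or, where n counts libraries, over libraries, which include both clones of a divided tumour.

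The table gives 1 value per gene, whatever start site the transcripts used. This matters most for *Hnf4a* (GRCm39, chr2:163348728-163414830, plus strand), whose 2 annotated start regions lie 40298 bases apart. Promoter windows of *Cdx2* (gene at chr5:147237615-147244091, minus strand) and of both *Hnf4a* starts are shown because these factors were the pair whose clone differences went together (below). Each window runs 5′ to 3′ from 250 bases before to 50 bases after the RefSeq start, taken from the GRCm38.p6 table and found at 1 place in GRCm39. Capitals mark the motif of GATA factors, AGATAA, the HNF1 site motif, GTTAAT, and the motif bound by KLF factors, CCACCC, on either strand. No match overlapped another.
Cdx2, chr5:147244010-147244309, minus strand: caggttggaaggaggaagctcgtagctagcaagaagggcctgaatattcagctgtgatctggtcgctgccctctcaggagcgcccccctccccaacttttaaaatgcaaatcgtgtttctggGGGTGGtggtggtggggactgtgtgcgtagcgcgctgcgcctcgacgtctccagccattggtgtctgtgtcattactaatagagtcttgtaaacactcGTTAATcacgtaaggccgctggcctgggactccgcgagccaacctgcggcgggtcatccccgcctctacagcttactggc
Hnf4a upstream start, chr2:163348527-163348826, plus strand: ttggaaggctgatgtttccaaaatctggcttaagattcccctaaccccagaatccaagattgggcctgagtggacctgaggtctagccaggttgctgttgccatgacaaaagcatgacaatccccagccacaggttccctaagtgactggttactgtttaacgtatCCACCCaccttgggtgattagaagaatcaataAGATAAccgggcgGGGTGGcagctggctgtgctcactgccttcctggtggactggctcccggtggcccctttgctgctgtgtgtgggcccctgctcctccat
Hnf4a downstream start, chr2:163388825-163389124, plus strand: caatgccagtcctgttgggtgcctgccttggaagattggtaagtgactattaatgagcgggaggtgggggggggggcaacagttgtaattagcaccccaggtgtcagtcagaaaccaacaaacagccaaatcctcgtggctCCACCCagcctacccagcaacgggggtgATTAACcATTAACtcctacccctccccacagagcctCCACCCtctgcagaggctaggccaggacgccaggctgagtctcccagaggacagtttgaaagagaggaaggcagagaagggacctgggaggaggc
The *Cdx2* window held 1 GTTAAT and 1 CCACCC, the upstream *Hnf4a* window 1 AGATAA and 2 CCACCC, and the downstream *Hnf4a* window 2 GTTAAT and 2 CCACCC. Among 32851 promoter windows of the same length, 11.2% held AGATAA, 7.1% GTTAAT and 31.5% CCACCC. A second motif of GATA factors, TGATAA, held by 9.05% of windows, and the HNF4 motif CAAAGTCCA, held by 0.475%, had no match in these 3 windows. Such matches describe the letters and do not show binding.

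Levels of different genes were compared per kilobase of exon. *Hnf4a* was the highest of the 9 factors, at 3231 ± 730.5 normalised counts per kilobase (s.d., n = 63 libraries), and lay above *Klf5* in 63 of 63 libraries. *Klf5* (1326 ± 194.3), *Klf4* (1306 ± 480.0) and *Cdx2* (1193 ± 375.3) followed with overlapping ranges, and *Klf5* exceeded *Klf4* in 38 of 63 libraries and *Klf4* exceeded *Cdx2* in 38 of 63. *Gata4* (906.9 ± 229.8) and *Cdx1* (905.4 ± 428.0) could not be ordered, since *Gata4* was above *Cdx1* in 37 of 63 libraries. *Gata5* (535.4 ± 140.0), *Hnf4g* (460.4 ± 280.3) and *Gata6* (264.3 ± 52.32) were the lowest, and *Hnf4g* exceeded *Gata6* in 46 of 63 libraries. The order thus separated *Hnf4a* from the rest, with neighbours further down overlapping. Exon bases were counted over all annotated transcripts, and *Gata6*, with 9221 of them, is the longest of the 9.

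**Figure D1:**
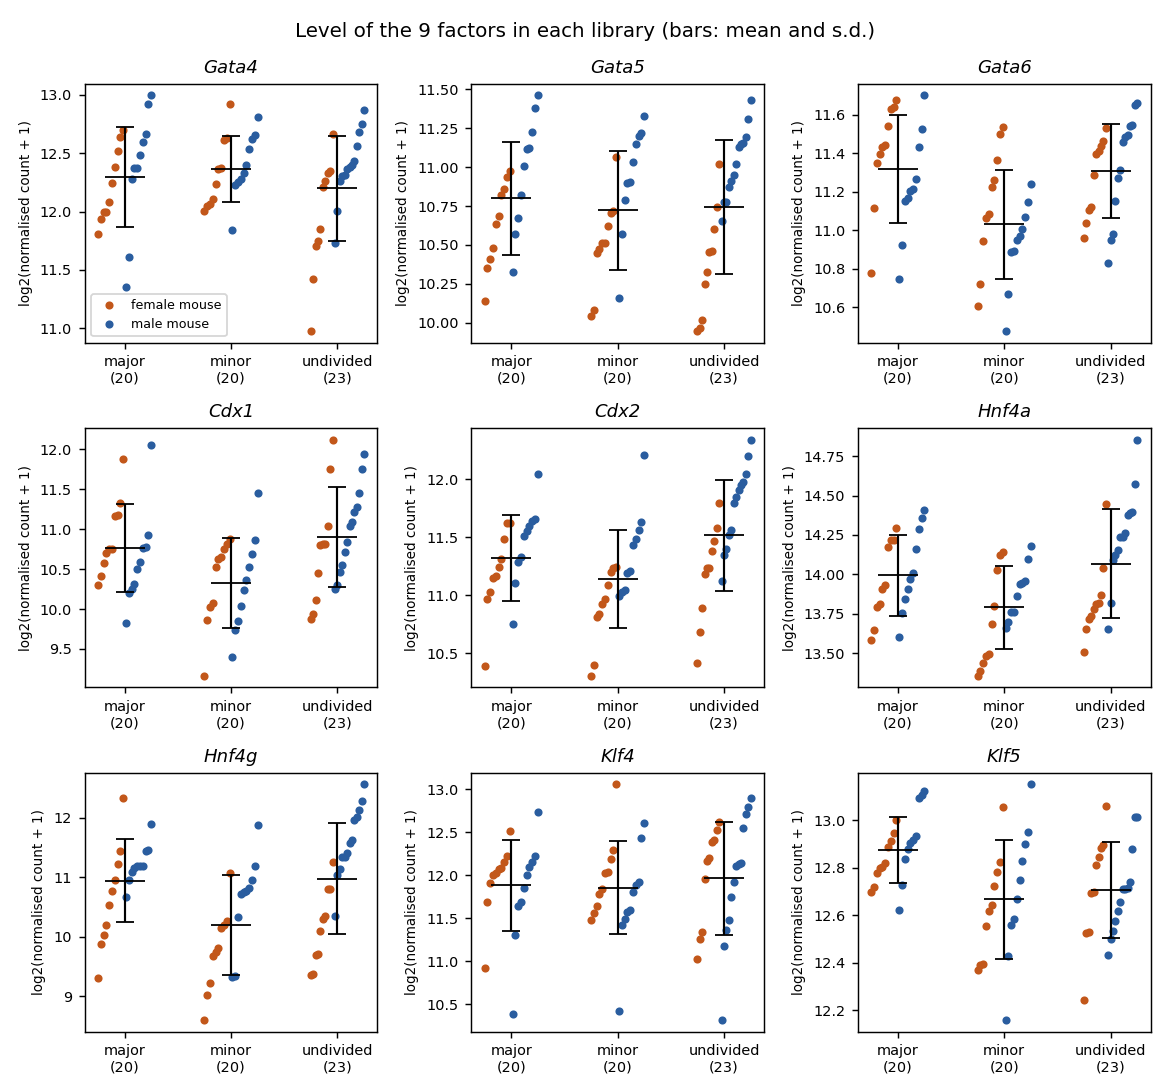
Level of each of the 9 factors, as log2(normalised count + 1) (y axis), in major clones (n = 20), minor clones (n = 20) and undivided tumours (n = 23); each point is 1 library, coloured by mouse and spread sideways in order of level within a mouse, and bars give the mean and s.d. Classes overlapped for every factor, and the minor clones had the lowest mean for every factor but *Gata4* (for example 2129 normalised counts of *Gata6* and 1370 of *Hnf4g*). These means are not adjusted for mouse. With mouse as a covariate, *Gata5* in undivided tumours was at 0.991 of the minor clones.

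The first comparison asked how the 2 clones of a tumour differed in these factors. *Gata6* passed the test over all genes: it was 1.22-fold higher in major than in minor clones and higher in 19 of 20 tumours. *Hnf4g* (1.68-fold), *Cdx1* (1.35-fold), *Hnf4a* (1.15-fold) and *Klf5* (1.15-fold) had positive differences that did not pass over all genes. *Gata4*, *Gata5*, *Cdx2* and *Klf4* had 95% intervals that included no difference. Thus 1 of 9 factors was called at an adjusted p under 0.05 (limma, tumour as block), against 1.14% of the 16428 genes tested in either direction and 0.67% in the higher direction. At an unadjusted p under 0.05 there were 5 of 9, against 22.4% of all genes. The median log2 difference of the 9 factors was 0.20, and 8 of 9 were positive, while the median of all genes was 0.0074 and 51.8% were positive.

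*Gata6* lies on chromosome 18 (GRCm39, 11051565 to 11086995, plus strand). Its lowest, median and highest normalised counts were 1715, 2650 and 3328 in major clones (mean 2596 ± 483) and 1423, 2097 and 2973 in minor clones (2129 ± 416). The ranges overlapped between tumours, but within tumours the major clone was almost always the higher. The log2 difference was 0.29 ± 0.17 (s.d., n = 20 tumours), from -0.10 to 0.61, with an exact signed-rank p of 9.54e-06. The exception was tumour 26 of the female mouse, with 2690 in the major and 2893 in the minor clone. In the female mouse 9 of 10 tumours were higher in the major clone, with a mean difference of 0.27, and in the male mouse 10 of 10, with a mean of 0.30. In limma the log2 fold change was 0.29 (s.e. 0.0435), the adjusted p was 0.00573, and this was the 3rd smallest p of 16428 genes. A count of 19 or more tumours in 1 direction was reached by 11 genes of all those tested (0.067%). In the female mouse alone the adjusted p of *Gata6* was 0.659. Without the pairing by tumour (no replicate block) it was 0.171, at the same difference.

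The other GATA factors gave no such difference. *Gata4* (chr14:63436362-63509141, minus strand) had 2612, 5312 and 8169 normalised counts (lowest, median, highest) in major clones and 3676, 5215 and 7739 in minor clones. It was higher in the major clone in 9 of 20 tumours. Its fold change was 0.954 (95% interval 0.837 to 1.09, adjusted p = 0.695). *Gata5* (chr2:179966880-179976509, minus strand) stood at 1126, 1808 and 2820 in major and at 1054, 1675 and 2567 in minor clones. It was higher in the major clone in 13 of 20 tumours, at a fold change of 1.06 (0.984 to 1.13, adjusted p = 0.354). Of the other GATA factors and FOG cofactors, 3 of 5 were expressed highly enough to test and 0 of 3 were called.

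*Hnf4g* (chr3:3573084-3724860, plus strand) had the widest clone differences of the 9. Its lowest, median and highest normalised counts were 634, 2230 and 5163 in major clones and 388, 1204 and 3762 in minor clones. The major clone was higher in 17 of 20 tumours, the exceptions being tumours 23 and 29 of the female and 31 of the male mouse. Tumour 22 of the female mouse, whose major clone was labelled SI20 and minor clone SI10, held the most unequal pair, with 5163 against 522. The log2 difference was 0.75 ± 1.07 (s.d., n = 20), the fold change 1.68 (95% interval 1.23 to 2.31) and the adjusted p 0.0691. Leaving out tumour 19 or 29 of the female mouse or tumour 31 of the male mouse took it past the threshold, with adjusted p from 0.0378 to 0.0477. Its paralogue *Hnf4a* had 12290, 15840 and 21790 normalised counts in major and 10490, 14080 and 18550 in minor clones. It was higher in the major clone in 15 of 20 tumours, at 1.15-fold (1.03 to 1.29) and an adjusted p of 0.130.

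Among the CDX factors, *Cdx1* (chromosome 18, 61151934 to 61169314, minus strand) had 910, 1694 and 4259 normalised counts in major and 574, 1392 and 2801 in minor clones. It was higher in the major clone in 14 of 20 tumours, with log2 differences from -0.55 to 2.0, a fold change of 1.35 (1.11 to 1.65) and an adjusted p of 0.0807. It passed, at 0.0448, only on leaving out tumour 19 of the female mouse. *Cdx2* had 1343, 2561 and 4225 in major and 1268, 2258 and 4752 in minor clones. It was higher in 13 of 20 tumours, at 1.13-fold (0.975 to 1.32) and an adjusted p of 0.317. The 2 clone classes overlapped widely for both genes.

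*Klf5* (chr14:99536086-99552473, plus strand) varied least of the 9 relative to its mean, from 6302 to 8924 normalised counts (median 7553) in major clones and from 4574 to 9088 (median 6450) in minor clones. The major clone was higher in 17 of 20 tumours, a share of same-direction tumours that 2.06% of all genes reached or passed. The log2 difference was 0.21 ± 0.23, the fold change 1.15 (1.07 to 1.25) and the adjusted p 0.0512. With a minimum mean of 50 in place of 10, and so fewer genes tested, the adjusted p was 0.0469, and leaving out tumour 19, 27 or 30 of the female or 31 of the male mouse also took it past the threshold. *Klf4* (chr4:55527139-55532528, minus strand) had 1334, 4139 and 6782 in major and 1373, 3621 and 8503 in minor clones. It was higher in the major clone in 11 of 20 tumours, at 1.02-fold (0.892 to 1.17, adjusted p = 0.882). The other 13 KLF factors tested, of 14 listed, gave 0 calls, 8 positive differences and a median of 0.02.

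**Figure D2:**
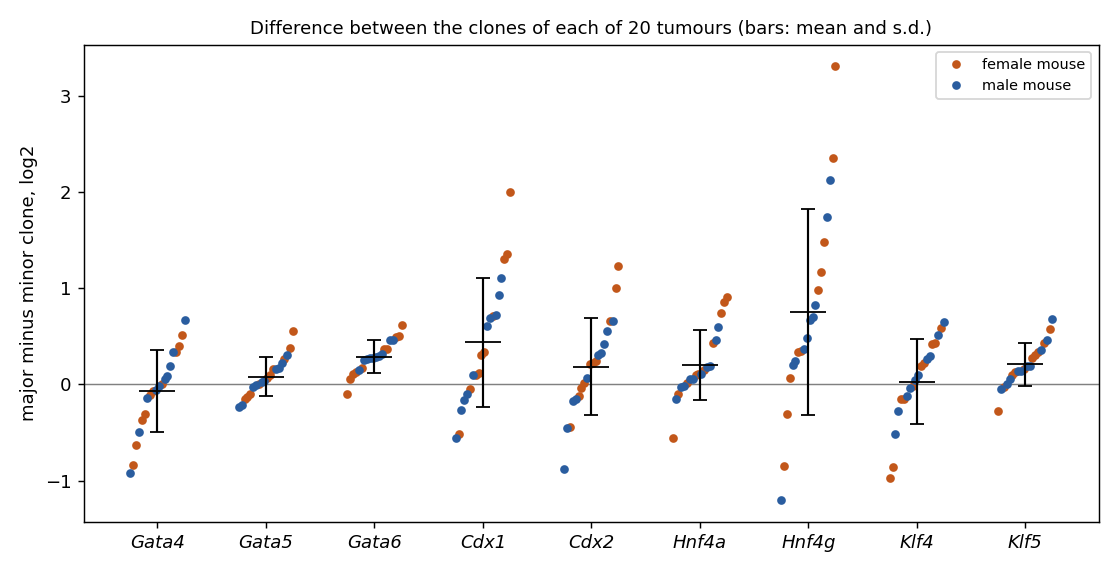
Major minus minor difference (y axis, log2) of each factor in the 20 divided tumours; each point is 1 tumour, coloured by mouse and in order of size within a factor, and bars give the mean and s.d. *Gata6* differences lie close together and above 0 in 19 of 20 tumours, whereas those of *Hnf4g* range from -1.20 to 3.30.

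Genes linked to these factors were described from lists. Of 10 CDX-linked genes, 1 rose in major clones: *Sis*, the brush border sucrase-isomaltase, was higher by a log2 of 1.10 (s.e. 0.264, adjusted p = 0.0439) and in 16 of 20 tumours. All 10 differences were positive, with a median of 0.46. Of 12 HNF4-linked genes, chiefly of lipid uptake and transport, 0 were called, while 12 of 12 were positive and the median was 0.35. Of 23 other intestinal transcription factors 0 were called, 19 were positive and the median was 0.22. Among 22 lineage genes, *Atoh1*, the secretory lineage factor, was called (0.69, s.e. 0.130, adjusted p = 0.0207, higher in 17 of 20 tumours), and the median was 0.24. These lists share genes with each other and with the cell type markers, and their medians lie above that of all genes. With the epithelial marker mean as a covariate far fewer genes were called (below), and *Sis* and *Atoh1* were not both among them.

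Other measures moved with the clone classes as well. The mean log2 level of the epithelial markers was higher in major clones by 0.15 in 16 of 20 tumours (exact sign-flip test over tumours, adjusted p = 0.00746 over 6 measures). That of immune markers was higher by 0.45 in 17 of 20 (adjusted p = 0.00921) and that of fibroblast and muscle markers by 0.61 in 14 of 20 (adjusted p = 0.0313). The ribosomal RNA *Rn18s* was lower in major clones by a log2 of 1.46 ± 1.55, being higher in 5 of 20 tumours (adjusted p = 0.00417). Endothelial markers (p = 0.986) and the library sum (p = 0.854) had mean differences of -0.0033 and 0.0052. With the epithelial marker mean as a covariate, *Gata6* differed by 0.32 (adjusted p = 0.0285). In the same fit *Hnf4g* differed by 0.50, *Cdx1* by 0.28, *Klf5* by 0.17, *Hnf4a* by 0.040 and *Cdx2* by 0.029, against 0.75, 0.44, 0.21, 0.20 and 0.18 without the covariate, and none of these 5 was called either way. Over the 20 tumours, the *Gata6* difference had a Pearson r of 0.09 with that of *Rn18s*, -0.26 with epithelial, -0.11 with fibroblast and muscle and 0.16 with immune markers, none of which passed. For the other measures, their part in the factors' differences was not tested beyond the correlations given further below.

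The second comparison set undivided tumours beside each clone class. It used the same 23 undivided tumours on both sides, so its 2 contrasts are not independent, and mouse was a covariate. Against major clones, 0 of 9 factors were called by limma, where 0.0121% of all genes were. At an unadjusted p under 0.05 there was 1 of 9, against 12% of all genes. *Gata6* had 1815, 2692 and 3242 normalised counts in undivided tumours (mean 2569 ± 422), a fold change of 0.996 to major clones (95% interval 0.889 to 1.12). *Klf5*, at 4845, 6702 and 8540 in undivided tumours, was at 0.890 of the major clones (0.822 to 0.963, unadjusted p = 0.00478, adjusted p = 0.282). The fold changes of the other 7 factors lay between 0.921 (*Gata4*) and 1.12 (*Cdx2*).

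Against minor clones, 2 of 9 factors were called, where 3.7% of all genes were called and 2.27% were called higher, and both were higher in undivided tumours. *Gata6* was 1.22-fold higher (95% interval 1.09 to 1.36, log2 0.28, s.e. 0.0809, adjusted p = 0.0405). *Hnf4g*, at 659, 2245 and 6048 normalised counts in undivided tumours, was 1.64-fold higher (1.23 to 2.17, log2 0.71, s.e. 0.204, adjusted p = 0.0402). Both groups overlapped for both genes, and each call lay close to the threshold. The minor clones included 2 libraries from SI30, a segment with no undivided tumour. In minor clones the SI30 means were 1622 for *Gata6* and 764 for *Hnf4g*. Those of SI10 were 2173 and 1129, and those of SI20 were 2194 and 1685. With mouse and segment as covariates, over SI10 and SI20 alone, neither gene was called. Leaving out 1 library ended the call of *Gata6* in 20 of 43 cases (adjusted p up to 0.0681) and that of *Hnf4g* in 19 of 43 (up to 0.0682). When all libraries were brought to 1 common sum, which put the median of all genes at -0.11, the adjusted p was 0.156 for *Gata6* (log2 0.19) and 0.0546 for *Hnf4g* (log2 0.62).

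The remaining factors lay near the threshold or within the spread. *Cdx1*, at 941, 1796 and 4449 normalised counts in undivided tumours, was at 1.48 times the minor clones (1.15 to 1.9, adjusted p = 0.0613). *Cdx2*, at 1369, 2930 and 5188, was at 1.27 (1.09 to 1.48, adjusted p = 0.0672), and *Hnf4a*, at 11640, 17470 and 29610, at 1.2 (1.06 to 1.34, adjusted p = 0.0691). At an unadjusted p under 0.05 there were 5 of 9 factors, against 19.6% of all genes. *Gata4*, at 2012, 5092 and 7481, was at 0.88 (0.755 to 1.03) and *Klf4*, at 1273, 4488 and 7598, at 1.09 (0.847 to 1.4). *Gata5* (985, 1755 and 2760) was at 0.991 (0.87 to 1.13) and *Klf5* at 1.03 (0.931 to 1.13). The median log2 difference of the 9 was 0.26, against -0.015 for all genes.

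Genes linked to these factors gave the following calls. Of 12 HNF4-linked genes 2 were higher in undivided tumours, *Treh* (trehalase, log2 1.07, adjusted p = 0.0207) and *Apoc3* (an apolipoprotein, 1.04, adjusted p = 0.0366), 12 were positive and the median was 0.58. Of 10 CDX-linked genes 2 were higher, *Sis* (1.17, adjusted p = 0.0169) and *Isx* (0.46, adjusted p = 0.0490), an intestinal homeobox gene. Of 23 other intestinal transcription factors 4 were higher and 1 lower: *Vdr* (the vitamin D receptor, 0.93), *Isx*, *Rxra* (the shared partner of many nuclear receptors, 0.41) and *Esrra* (0.34) rose, and *Ehf* (an epithelial ETS factor, -0.30) fell. *Isx* stands in both lists. *Chga*, of enteroendocrine cells, was the 1 call among 22 lineage genes (0.93, adjusted p = 0.0155). Among cell type markers *Cldn7* (0.28) and *Cd3e* (0.94) were higher and *Cdh5* (-1.12), of endothelium, was lower. As marker means, endothelium differed by -0.53 (permutation p within mice 0.0224, adjusted 0.0914 over 6 measures) and immune cells by 0.42 (adjusted p = 0.101). The epithelial marker mean differed by 0.062 (adjusted p = 0.641) and that of fibroblast and muscle markers by -0.11 (adjusted p = 0.75). *Rn18s* differed by -0.53 (adjusted p = 0.376) and the library sum by a log2 of 0.094 (adjusted p = 0.0914). Except for the epithelial markers as a covariate (below), the part of these measures in the members' differences was not tested.

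The 2 mice differed in the level of some factors, which is described without a test because each sex was 1 animal. *Hnf4g* in undivided tumours ranged from 659 to 2462 normalised counts (median 1174) in the female and from 1312 to 6048 (median 3054) in the male mouse. *Hnf4a* ranged from 11640 to 22300 (median 14230) and from 12890 to 29610 (median 19350). *Cdx2* ranged from 1369 to 3553 (median 2416) and from 2229 to 5188 (median 3690). In all 3 the male tumours lay higher with some overlap. Over all 63 libraries, *Gata5* had means of 1490 ± 324.7 (n = 30) and 2059 ± 410.7 (n = 33), whereas *Gata6* had 2510 ± 460.4 and 2372 ± 499.6. The interaction of class and mouse was called for 0 genes in limma in any of the 3 class comparisons. At an unadjusted p under 0.05 there were 1228 of 16428, 1922 of 16510 and 2098 of 16491 genes. For the clone difference of *Gata6* the interaction was 0.034 (unadjusted p = 0.742). For *Hnf4g* in undivided tumours against major clones it was 0.86 (male minus female, unadjusted p = 0.0274, adjusted p = 0.369). There the mean log2 level was 10.18 in undivided tumours and 10.67 in major clones of the female mouse. In the male mouse these means were 11.6 and 11.23.

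The third comparison asked whether the factors followed the segment. In undivided tumours, 0 of 9 factors were called between SI20 and SI10 (limma, mouse as covariate), where 0.17% of all genes were, and 0 of 9 had an unadjusted p under 0.05, against 7.62% of all genes. *Gata4*, the factor known for proximal identity, had 2746, 5358 and 7481 normalised counts in SI10 (n = 12) and 2012, 5064 and 5538 in SI20 (n = 11). The groups overlapped, and the fold change was 0.925 (95% interval 0.732 to 1.17, adjusted p = 0.882). *Klf4* had the largest difference, 0.794 (0.547 to 1.15, adjusted p = 0.771), and the other 7 lay between 0.954 (*Gata6*) and 1.08 (*Klf5*). Of the listed segment genes, only those named next were called in the same libraries. *Pdx1*, a homeobox factor of the duodenum, was lower in SI20 (log2 -3.05, adjusted p = 0.0313), as were the iron transport genes *Cybrd1* (-3.63, adjusted p = 0.0140) and *Slc40a1* (-2.97, adjusted p = 0.0214). *Osr2*, from the distal list, was higher (4.67, adjusted p = 0.0278). Tumour 6 of the female mouse, labelled SI20, went against this pattern, with 1084 normalised counts of *Pdx1* and 2.66 of *Osr2*. Without it 0 of 9 factors were called as well, with log2 differences of -0.019 for *Gata4* and -0.28 for *Klf4*, against -0.11 and -0.33 with it, and the number of genes called rose from 28 to 53. With libraries scaled to the same sum the median of all genes moved to 0.11 here.

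In the 17 divided tumours with both clones from 1 of these segments, each tumour entered as the mean of its clones, and 0 of 9 factors were called, where 0.28% of all genes were. All 9 log2 differences were positive, from 0.0050 to 0.37, with a median of 0.16 against 0.0072 for all genes. *Gata5* had the largest, 1.3-fold higher in SI20 (1.09 to 1.54, unadjusted p = 0.00499, adjusted p = 0.206). In these tumours its major clones had 1282, 1588 and 1955 normalised counts in SI10 and 1428, 2138 and 2820 in SI20, and its minor clones 1084, 1521 and 2140 in SI10 and 1398, 2001 and 2567 in SI20. Both segments overlapped. Without tumour 23 of the female mouse *Gata5* passed (log2 0.48, adjusted p = 0.0241), whereas in undivided tumours it was at 1.02 (0.857 to 1.22). *Gata4* was at 1.13 (0.925 to 1.37). *Pdx1* (-2.58, adjusted p = 0.000103) and *Osr2* (4.64, adjusted p = 0.000397) had the smallest and the 2nd smallest p of all genes. *Slc40a1* was lower in SI20 as well (-2.18, limma adjusted p = 0.0423), whereas *Cybrd1* was not called in these tumours.

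**Figure D3:**
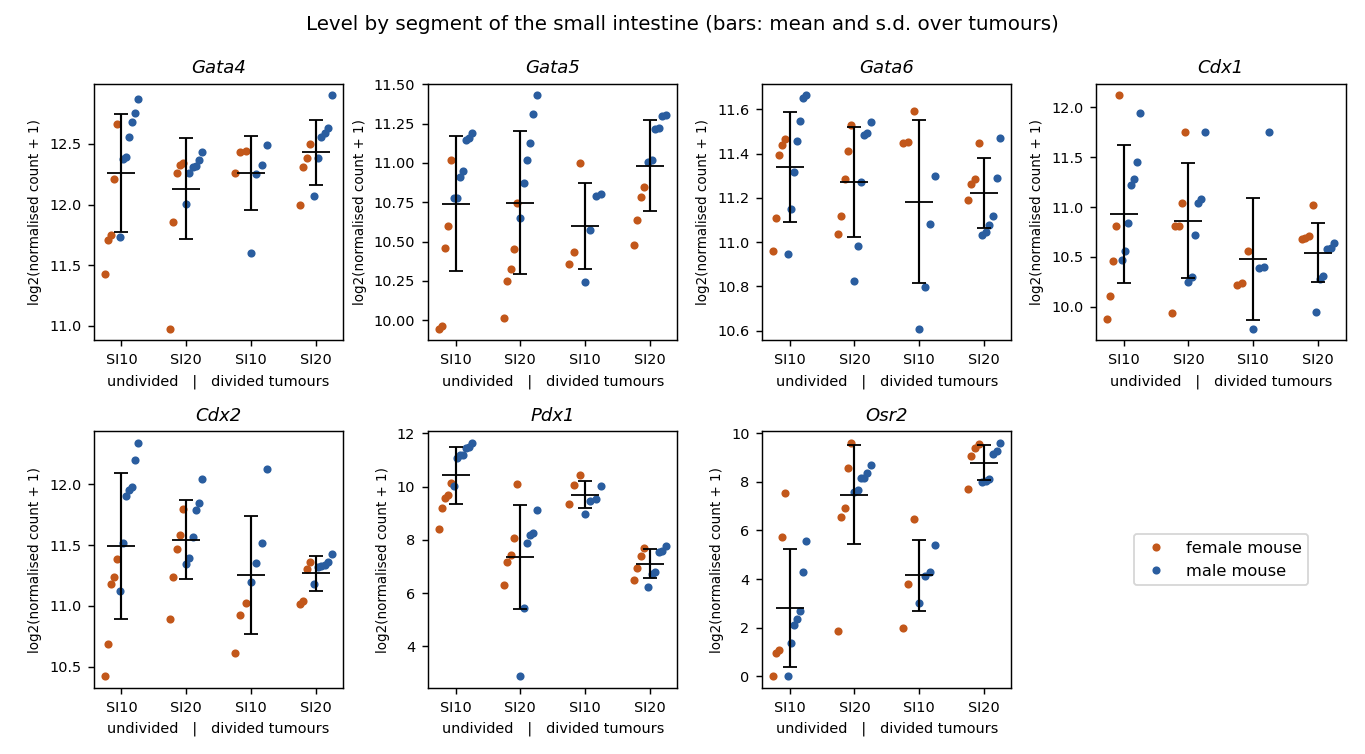
Level, as log2(normalised count + 1) (y axis), of the GATA and CDX factors and of the segment genes *Pdx1* and *Osr2* in SI10 and SI20, for undivided tumours (n = 12 and 11) and divided tumours (n = 7 and 10, each the mean of its 2 clones); points are tumours, coloured by mouse, and bars give the mean and s.d. Every gene shown overlaps between segments in undivided tumours, where *Pdx1* and *Osr2* differ on average by a log2 of -3.05 and 4.67, and 1 female tumour of SI20 lies at the SI10 level of both.

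The gap between clones was also compared between segments in those 17 tumours. No gene was called (0%), and 672 genes (4.09%) had an unadjusted p under 0.05. For *Gata6* the ratio of major to minor clones in SI20 was 0.995 of that in SI10 (95% interval 0.852 to 1.16). *Cdx2* was the 1 factor of 9 with an unadjusted p under 0.05 (0.0274, adjusted p = 0.999), its gap in SI20 being 1.43 times that in SI10 (1.05 to 1.96).

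The factors were next related to each other over tumours. In the 23 undivided tumours, after the mean of each mouse and segment was removed, 13 of 36 pairs passed at an adjusted p under 0.05 (Pearson, permutation within mouse and segment, adjusted over 36 pairs), 8 positive and 5 negative. The absolute r of these 13 lay between 0.52 and 0.73, and each had the same sign in both mice. Relations at an unadjusted p under 0.05 made up 50% of the pairs, whereas a single factor had them with between 11.9% and 38.8% of all genes. Genes are not independent replicates.

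*Cdx1* and *Cdx2* went together (r = 0.73, permutation p = 3e-04, adjusted p = 0.00828, rho = 0.76, p = 0.00015, n = 23), with r = 0.65 in the female and 0.84 in the male mouse and 0.76 without the 2 farthest tumours. Here and below, the 2 farthest tumours are those farthest from the median of the first-named gene, so extreme values of the other gene could remain. *Hnf4a* and *Klf4* also went together (r = 0.73, permutation p = 0.00048, adjusted p = 0.00828, rho = 0.68, p = 0.00174), with 0.55 and 0.82 in the mice and 0.58 without the 2 farthest tumours. *Cdx2* and *Klf4* went opposite ways (r = -0.69, permutation p = 0.00069, adjusted p = 0.00828, rho = -0.75, p = 0.00014), with -0.68 and -0.70 in the mice and -0.73 without the 2 farthest. *Gata6* and *Hnf4g* went together as well (r = 0.60, permutation p = 0.00376, adjusted p = 0.0193, rho = 0.60, p = 0.00314), with 0.52 and 0.66 in the mice and 0.60 without the 2 farthest. The remaining calls joined *Gata6* to *Klf4* (0.66), *Hnf4a* (0.63) and *Gata5* (0.54), and *Gata5* to *Gata4* (0.54) and *Klf4* (0.52). Negative ones set *Cdx1* against *Gata5* (-0.70) and *Klf4* (-0.53), and *Gata4* against *Cdx2* (-0.57) and *Klf5* (-0.57). *Cdx2* and *Gata5* had r = -0.49, which did not pass (adjusted p = 0.0684).

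In the clone differences of the 20 divided tumours, which are other tumours of the same mice, 1 of 36 pairs passed. *Cdx2* and *Hnf4a* had r = 0.68 (permutation p = 0.0012, adjusted p = 0.0432, n = 20) and rho = 0.55 (p = 0.0130, adjusted p = 0.123). The r was 0.86 in the female and 0.36 in the male mouse and 0.71 without the 2 farthest tumours. With libraries scaled to the same sum or quantile normalised 0 pairs passed, and in undivided tumours the r of this pair was -0.16. Pairs at an unadjusted p under 0.05 made up 22.2%, within the range that single factors had with all genes (5.78% to 30%). *Cdx1* and *Cdx2* (0.61, adjusted p = 0.0734) and *Gata6* and *Hnf4g* (0.55, adjusted p = 0.114) had positive r in both sets of tumours. *Gata6* and *Klf5* differences, both higher in most major clones, had r = -0.50 (permutation p = 0.0254, adjusted p = 0.152).

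**Figure D4:**
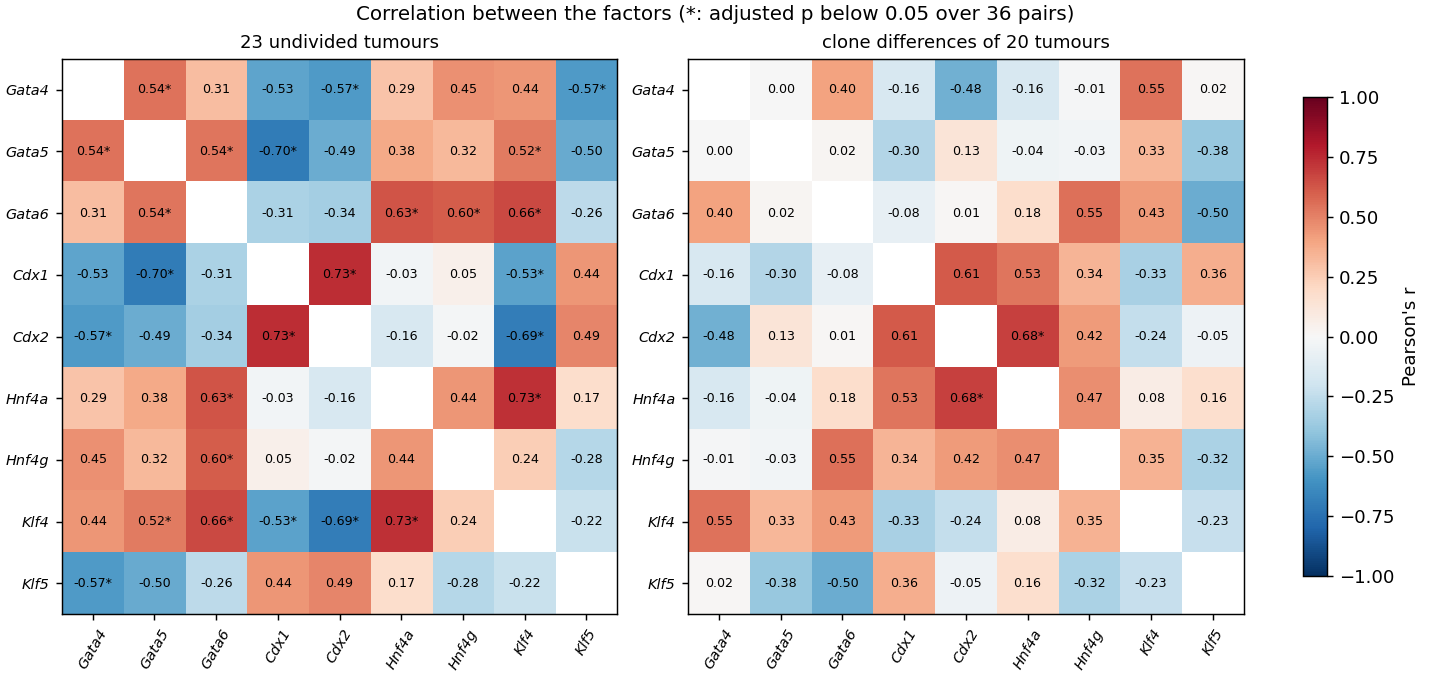
Pearson r (colour and number) of each pair of the 9 factors over 23 undivided tumours, mouse and segment means removed (left), and over the major minus minor differences of 20 divided tumours (right); an asterisk marks an adjusted p under 0.05. *Cdx1* with *Cdx2* (0.73 and 0.61) and *Gata6* with *Hnf4g* (0.60 and 0.55) are positive in both, while *Cdx2* with *Hnf4a* is -0.16 in the first and 0.68 in the second.

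The factors also varied with the makeup of the tumours. Of 54 relations with 6 library measures in undivided tumours, 9 passed, and 37% had an unadjusted p under 0.05 (Pearson, permutation). The share of all genes with such relations was not computed. The counts here and in clone differences therefore do not show a trait particular to the factors. *Hnf4a* and *Klf4* rose with the epithelial markers (r = 0.87 and 0.77). *Cdx2* (-0.80) and *Cdx1* (-0.68) went against the endothelial markers, and *Klf4* (0.66) with them. *Cdx1* (0.63) and *Cdx2* (0.56) went with *Rn18s*, *Gata5* (0.57) with fibroblast and muscle markers and *Hnf4a* (0.60) with the library sum. *Gata6* had r = 0.52 with the epithelial markers (adjusted p = 0.0783). In clone differences 1 of 54 passed, *Hnf4a* with epithelial markers (0.70, adjusted p = 0.0184). With the epithelial markers regressed out, 10 pairs passed in undivided tumours, of which 6 were among the 13 above, and *Hnf4a* with *Klf4* had r = 0.20 (adjusted p = 0.475). The part of the other measures in the pairs was not tested.

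*Gata6* was then related to 22 genes of intestinal lineages. In undivided tumours 3 of 22 passed, and 8 of 22 (36.4%) had an unadjusted p under 0.05, against 30.6% of 13086 genes. *Gata6* rose with *Vil1*, the brush border protein villin (r = 0.74, permutation p = 0.00018, adjusted p = 0.00396, rho = 0.71, p = 0.00045, n = 23), with 0.46 in the female and 0.88 in the male mouse and 0.64 without the 2 farthest tumours. It fell with *Ascl2*, a stem cell factor (r = -0.68, permutation p = 0.00137, adjusted p = 0.0151, rho = -0.67, p = 0.00188), with -0.50 and -0.77 in the mice and -0.50 without the 2 farthest. It rose with *Apoa4*, an apolipoprotein of enterocytes (r = 0.62, permutation p = 0.00245, adjusted p = 0.0180, rho = 0.63, p = 0.00211), with 0.50 and 0.76 and 0.49 without the 2 farthest. Adjusted over all genes these were 0.0182, 0.0311 and 0.0367, and 9.56% of all genes passed there. With libraries brought to 1 common sum, with quantile normalization and with the epithelial markers, *Vil1* among them, regressed out, 0 of 22 passed. An r at least as large in size was held by 1.32%, 3.95% and 8.99% of genes. The stem cell gene *Lgr5* had r = 0.0071 (permutation p = 0.975) and the proliferation gene *Mki67* -0.19 (p = 0.438).

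Over the clone differences, 0 of 22 lineage genes passed and 1 had an unadjusted p under 0.05 (permutation of tumours), against 12.9% of all genes. This was *Fabp2*, a fatty acid binding protein of enterocytes (r = 0.49, permutation p = 0.0299, adjusted p = 0.459). *Vil1* had r = 0.34 (p = 0.146) and rho = 0.46 (p = 0.0426), *Ascl2* -0.24 (p = 0.314) and *Apoa4* 0.34 (p = 0.141), each with the sign it had in undivided tumours.

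**Figure D5:**
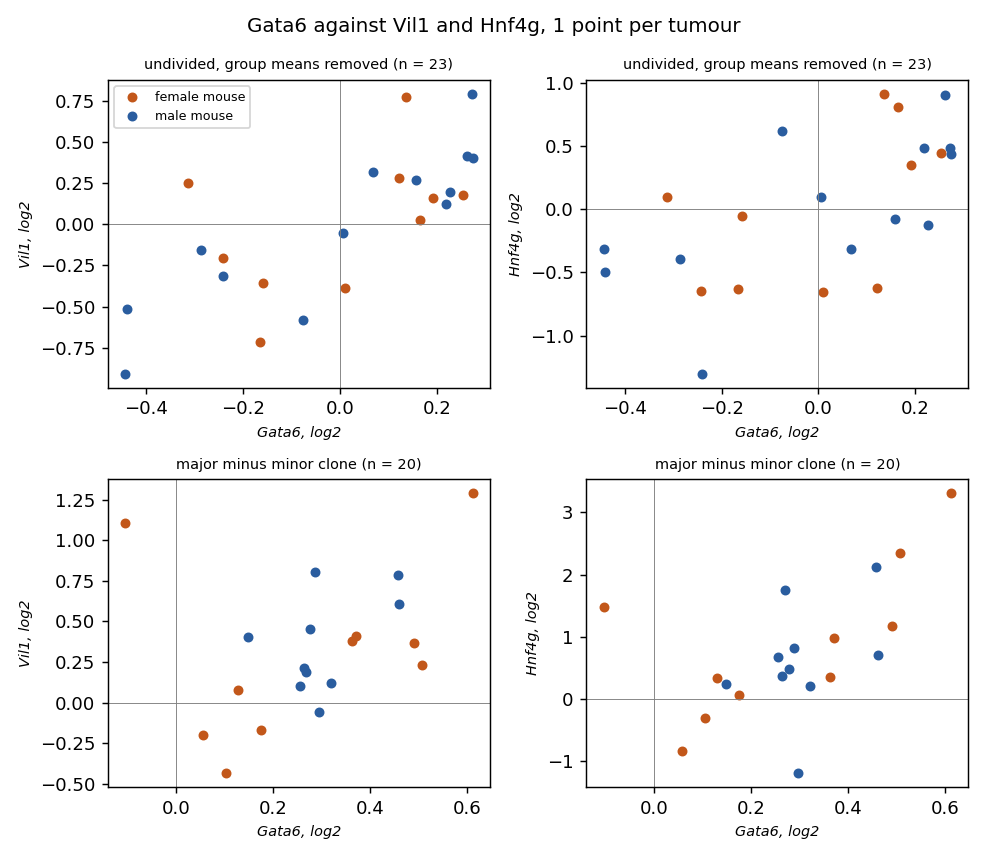
Log2 level of *Gata6* (x axis) against *Vil1* and *Hnf4g* (y axes) in undivided tumours with the mean of each mouse and segment removed (top, n = 23), and the same for major minus minor differences (bottom, n = 20); each point is 1 tumour, coloured by mouse. The r with *Vil1* is 0.74 above and 0.34 below and that with *Hnf4g* 0.60 and 0.55, and female tumour 26, with the only negative *Gata6* difference, lies apart at the left of both lower panels.

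The genes most like 4 of the factors over the 23 undivided tumours were sought among 13086 genes, as a description with no test. For *Gata6* they included *Naip2* (r = 0.86) and *Zbtb7b* (0.86), with r of 0.39 and 0.36 over the 20 clone differences. For *Hnf4a* they were *Cdh17* (0.95), the intestinal cadherin, *Tnfaip1* (0.95) and *Itpk1* (0.93), with 0.55, 0.82 and 0.76 over clone differences. For *Cdx2* they were *Stra6l* (0.83), *Exosc9* (0.82) and *Stard5* (0.80), with 0.65, 0.42 and 0.47. For *Gata4* they were *Apba3* (0.82), *Kctd21* (0.82) and *1700025G04Rik* (0.79), with 0.24, 0.11 and 0.44. The r of these genes over clone differences thus ranged widely, with overlap between the factors, and the points of each set share library, mouse and tumour makeup.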

How the data were processed

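RNA from 63 small intestinal tumour libraries was analysed. The deposited unit is a normalised signal for each gene: the authors trimmed reads with Trimmomatic 0.39, estimated counts with Salmon 1.9.0 against Gencode on GRCm39 and scaled them between libraries as normalised counts, per their processing notes with DESeq2. FastQC 0.11.9, STAR 2.7.7a and Picard 2.27.3 are also named there. Whole reads could not be recovered, so depth is unknown and no count model was used. The class of each clone came from the paper's source data, not from the labels, and clones were paired by tumour number. The 2 clones of a tumour deviated together (median r across genes 0.265, above 0.1 in 17 of 20 tumours, against -0.0198 between tumours). Mouse and segment were not removed there, and clones of a tumour share the mouse and mostly the segment. These values therefore cannot show that the likeness belongs to the tumour. All columns of the table were used.

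Genes with a mean of at least 10 were tested on log2(value + 1) with limma 3.58.1 (eBayes with trend, R 4.3.3), Benjamini-Hochberg over all genes, threshold 0.05. Fold changes are on the log2(value + 1) scale, which understates changes of low genes. Tumour was a block between clones and mouse a covariate elsewhere. Replicates are tumours of 2 mice, so p-values measure the spread between tumours and not between animals. Correlations used 100000 permutations, two-sided. Signed-rank and sign-flip tests were exact and two-sided. Alternatives covered the pseudocount (0.1 and 5), the filter (none and 50), normalization, variance model, covariates, segments, each mouse alone, the block and leaving out tumours or libraries; adjustment of the lineage relations over all genes, the library measures and the interaction with mouse were added after seeing the data. The scripts were tested on simulated data. Members and lists were chosen with earlier results of these data known. The genes named are the 9 members, up to 5 genes of a list called in a comparison, and the 3 genes most like 4 of the members, of which 1 is not reported here. *Gata4*, *Hnf4g* and *Klf5* are not in the promoter table used. Positions are from Gencode M39 on GRCm39. Figures were drawn with matplotlib 3.10.9 in Python 3.11.15. Staining and organoid data were not analysed here.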

Additional observations from a re-analysis of the deposited data

Results flagged for a closer look

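Within 81 groups of 5 to 10 libraries, 5 held a library far from the rest by Dixon's ratio, about what chance gives at 1 in 20 groups. The groups were not all independent, since the undivided tumours of the female mouse entered together and again by segment. *Gata4* was 3390 normalised counts in undivided tumour 4 from SI10 of the male mouse, against 5328 to 7481 in the other tumours (n = 7). Tumour 19 of the male mouse stood out in both of its clones: its major clone had 4259 normalised counts of *Cdx1*, against 909.6 to 1949 in the other major clones of that mouse, and its minor clone had 4752 of *Cdx2*, against 2039 to 3181 (n = 10 each). *Klf4* was 1940 in the major clone of female tumour 29, 1 of the 2 tumours from SI30, against 3288 to 5841, and 8503 in the minor clone of female tumour 23, against 2851 to 5014 (n = 10 each). The causes were not tested.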

How the results depend on the processing

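*Gata6* between major and minor clones was called in all 20 fits that left out 1 tumour (adjusted p 0.00147 to 0.0185). Over 13 other settings it ranged from 0.24 to 0.32 on the log2 scale and was called in 11, the exceptions being the female mouse alone (adjusted p = 0.659, 10 tumours) and no replicate block (adjusted p = 0.171), where the pairing of clones by tumour is dropped. The number of members called there was 1, and was 2 with a minimum mean of 50 (*Gata6* and *Klf5*), 0 in the female mouse alone, 0 with no replicate block and 1 to 4 on leaving out a tumour. Undivided tumours against minor clones gave 2 members, but 0 with no filter, 1 with quantile normalization (*Hnf4g*), 0 with libraries scaled to the same sum, 5 with the epithelial marker covariate (*Gata6*, *Cdx1*, *Cdx2*, *Hnf4a* and *Hnf4g*), 0 in the female mouse alone, 0 with mouse and segment as covariates and 0 to 4 on leaving out a library (0 in 14 of 43 fits). The *Gata6* call there was lost without minor clones female 22, 28, 29 and 30 or male 19, 22, 23, 26, 27, 28, 29 and 31, and without undivided tumours female 7 and 9 or male 1, 2, 3, 5, 10 and 17. That of *Hnf4g* was lost without minor clones female 20, 22, 28 and 30 or male 19, 20, 23, 26, 27 and 29, and without undivided tumours female 4, 5, 7 and 9 or male 1, 2, 5, 10 and 17. SI20 against SI10 in divided tumours gave 0 to 1 members on leaving out a tumour. *Gata6* with lineage genes in undivided tumours gave 3 relations, but 0 with the same sum, 0 with quantile normalization, 0 with the epithelial markers regressed out, 0 in the female and 6 in the male mouse alone, and clone differences gave 0 but 2 with epithelial markers regressed out (*Fabp2* and *Vil1*). Member pairs in undivided tumours fell from 13 to 0 in the female and 2 in the male mouse alone. In clone differences 1 pair became 0 with the same sum, 0 with quantile normalization, 2 with epithelial markers regressed out, 0 in the female and 0 in the male mouse.

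Changes of direction touched only differences that were not called. Between clones *Klf4* was -0.0266 with quantile normalization and -0.0298 in the female mouse (-0.00262 to 0.0824 on leaving out a tumour), and *Gata4* was 0.0386 with the epithelial covariate. Undivided against major, *Gata6* was 0.0267 with that covariate and 0.0998 in the male mouse (-0.0377 to 0.0171 on leaving out a library). Undivided against minor, *Klf5* was -0.0492 with quantile normalization and -0.0543 with the same sum, *Klf4* -0.000896 in the female mouse, and *Gata5* 0.101 in the male mouse and 0.0127 with mouse and segment (-0.0601 to 0.0183 on leaving out a library). SI20 against SI10, *Gata4* was 0.000854 in undivided and -0.0808 in divided tumours of the female mouse. The *Gata6* gap between segments was 0.0102 with the same sum, 0.0205 with the epithelial covariate and 0.00281 in the female mouse (-0.0419 to 0.0344 on leaving out a tumour). The causes were not tested. Over all genes, the 188 calls between clones (58.5% higher) were 344 with quantile normalization (38.7% higher), 292 with the same sum (66.1% higher), 85 with no filter, 2 with the epithelial covariate, 1 with no replicate block, 48 by signed-rank test, 0 and 33 in the female and male mouse alone, and 25 (without male tumour 20) to 859 (without female tumour 19). The 610 calls of undivided against minor (61.5% higher) were 36.7% higher with the same sum and ranged from 274 (without minor male 26) to 959 (without minor female 19). On leaving out 1 library or tumour, the 2 calls of undivided against major ranged from 0 (among others without major female 26) to 25 (without undivided male 7), the 28 of SI20 against SI10 in undivided tumours from 5 (without female 10 or male 8) to 53 (without female 6), and the 46 in divided tumours from 13 (without female 19) to 215 (without female 23). Each mouse is 1 animal, read depth is unknown, and gene totals cannot separate start sites.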

Other observations

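The antisense transcripts that run opposite *Gata6* and *Hnf4a* are counted separately. *Gata6os* had a mean of 92.53 ± 46.2 normalised counts in the female (n = 30) and 124.0 ± 46.3 in the male mouse (n = 33), below every *Gata6* value in the same libraries, and its major minus minor difference was 0.20 (adjusted p = 0.39, limma), higher in 13 of 20 tumours. *Hnf4aos* had means of 8.485 ± 7.595 and 24.79 ± 20.82 and a difference of 0.55 (adjusted p = 0.373). The library kit marks strand, and whether strand was used in the counting is not given in the sources used here.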
